A study of Mus musculus with 12 samples.

Results

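The Regnase genes Zc3h12a and Zc3h12c and the tristetraprolin family genes Zfp36, Zfp36l1 and Zfp36l2 encode proteins that shorten the life of cytokine mRNAs. These 5 genes were taken by name from the 15986 genes in the deposited tables. They were followed in mature Ly6G+ neutrophils from the bone marrow of C57BL/6 mice, in 4 groups of 3 libraries. The groups were RAB27aKO cells given 5 µM CpG-B (ODN 1826, a ligand of TLR9), RAB27aKO cells without CpG, wild-type cells given the same CpG-B, and wild-type cells without CpG. All cells were kept for 6 h at 37C, and the labels describe the condition without CpG both as vehicle and as untreated, called unstimulated here. Rab27a encodes a small GTPase that docks secretory granules, and the sources used here do not give its allele, the age and sex of the mice or whether cells were pooled. Nothing in the labels states that libraries of a group came from separate animals, so the p-values speak for the spread among these libraries, which could be technical.

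Cells that make inflammatory cytokines also limit them by destroying the mRNA. Tristetraprolin (TTP, the Zfp36 product) and its relatives bind AU-rich elements in the 3′ UTR of short-lived mRNAs and bring in the CCR4-NOT deadenylase. The kinase MK2, which p38 activates, phosphorylates TTP and restrains it. Regnase-1, the Zc3h12a product, is an endonuclease that cuts stem-loops in the 3′ UTR of cytokine mRNAs, and it is itself removed after Toll-like receptor signals. Regnase-3, the Zc3h12c product, is a relative studied in mouse macrophages. In myeloid cells Zfp36 and Zc3h12a are known as feedback genes of Toll-like receptor signalling.

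The RNA-contacting CCCH zinc finger is what the 5 genes share, and its coding stretch is shown to let the families be compared. Capitals mark the codons of the 3 cysteines and the histidine that hold the zinc. All 5 genes lie on the minus strand, and the stretches were read 5′ to 3′ from GENCODE vM21 coding exons on GRCm38.
Zfp36, chr7:28378158-28378217: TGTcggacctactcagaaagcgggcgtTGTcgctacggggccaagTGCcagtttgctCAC
Zfp36l1, chr12:80110189-80110248: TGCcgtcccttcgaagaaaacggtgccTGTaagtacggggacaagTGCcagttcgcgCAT
Zfp36l2, chr17:84186668-84186727: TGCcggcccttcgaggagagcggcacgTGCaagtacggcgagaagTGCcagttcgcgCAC
Zc3h12a, chr4:125120104-125120335: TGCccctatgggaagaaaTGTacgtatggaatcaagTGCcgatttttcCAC
Zc3h12c, chr9:52116762-52117548: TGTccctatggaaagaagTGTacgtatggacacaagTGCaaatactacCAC
The TTP family stretches are the first of 2 fingers and lie within exon 2 of each gene. The Regnase stretches are the only finger found and are split over exons 5 and 6, with the intron left out of the line above. Over 60 bases Zfp36l1 and Zfp36l2 were identical at 49 positions (81.7%), against 42 (70.0%) for Zfp36 and Zfp36l1 and 40 (66.7%) for Zfp36 and Zfp36l2. Over 51 bases Zc3h12a and Zc3h12c were identical at 41 positions (80.4%).

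TTP acts at AU-rich elements, so the 3′ UTRs of its best-known cytokine target, of another cytokine, of the Regnase-1 target Nfkbiz and of the 5 genes themselves were searched for the letters TATTTAT. One 30-base stretch around a match is shown for each mRNA that held one, with the match in capitals.
Tnf, chr17:35199678-35199707: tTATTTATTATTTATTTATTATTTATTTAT
Zfp36, chr7:28376962-28376991: gggcccttTATTTATgacgacttTATTTAT
Zfp36l2, chr17:84184913-84184942: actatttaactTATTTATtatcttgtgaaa
Zc3h12c, chr9:52114861-52114890: gctataatcatTATTTATaggaacaaagat
Il6, chr5:30019728-30019757: tttatgattgaTATTTATtatttttatgaa
The Tnf 3′ UTR held 8 matches in 764 bases, overlapping ones included, and that of Il6, the one on the plus strand, held 1 match in 427 bases. Among the decay genes, Zfp36 held 3 matches in 774 bases, Zfp36l2 held 3 in 1822 bases and Zc3h12c held 2 in 3421 bases. The letters were not in the 856 bases of Zc3h12a, the 794 bases of Zfp36l1 or the 1355 bases of Nfkbiz. A match is a run of letters and not a measured binding site.

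Each library held 10928813 to 15513279 estimated counts, and 10802 genes, the 5 decay genes among them, passed the filter on low counts. All 12 neutrophil markers on the list used here had counts in every library. Rab27a, the targeted gene, averaged 107 ± 9.78 CPM in RAB27aKO CpG cells against 236 ± 42.9 CPM in wild-type CpG cells, and 113 ± 17.4 CPM in unstimulated RAB27aKO cells against 272 ± 54.9 CPM in unstimulated wild-type cells. It was lower in RAB27aKO cells in both conditions (log2 -1.14, SE 0.17, with CpG and -1.26, SE 0.17, without it; edgeR quasi-likelihood, adjusted p = 0.00112 and 0.000365). RAB27aKO CpG library 2 stood apart: S100a8 and S100a9 took 2.53% of its counts, against 4.62 to 5.86% in the 11 other libraries. Its 12 neutrophil markers, S100a8 and S100a9 among them, summed to 53484 CPM (counts scaled to library size), against 69712 to 90720 CPM elsewhere. In TPM, S100a8 and S100a9 took 27.3% of this library, against 29.3 to 34.5% of the others. The RAB27aKO libraries also differed among themselves in markers of other cells. The 8 erythroid markers summed to 540, 1746 and 6326 CPM in RAB27aKO CpG libraries 1, 2 and 3 and to 456, 1914 and 6289 CPM in unstimulated RAB27aKO libraries 1, 2 and 3, against 4111 to 5399 CPM over the 6 wild-type libraries. In bulk samples such as these, fewer cells of a type and less RNA per cell cannot be told apart.

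CpG in RAB27aKO cells moved all 5 decay genes: 4 rose and 1 fell. The rise of Zc3h12c was called from the gene's total counts and not from its curated transcript. Both Regnase genes rose over 3-fold, Zfp36l1 did the same, Zfp36 rose by less, and Zfp36l2 fell. Of all genes tested in this comparison, 7.57% were called higher and 4.06% lower, at an adjusted p of at most 0.05. Log2 fold changes come from one fit over all 12 libraries, with the standard error (SE), and adjusted p-values are edgeR quasi-likelihood values after Benjamini-Hochberg correction over all genes tested.

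Zc3h12a had 84.8, 127 and 75.5 CPM in RAB27aKO CpG libraries 1, 2 and 3, against 35.8, 27.9 and 30.5 CPM in unstimulated RAB27aKO libraries 1, 2 and 3. Every CpG library was above every unstimulated one, and library 2 was the highest. The log2 fold change was 1.61 (SE 0.18, 3.05-fold; adjusted p = 4.82e-05). Zc3h12c was far scarcer, at 9.33, 12.8 and 22.1 CPM in RAB27aKO CpG libraries, against 2.64, 3.60 and 5.36 CPM in unstimulated RAB27aKO libraries. The groups did not overlap, and in both of them library 3 was the highest and library 1 the lowest. CpG thus raised it at log2 1.92 (SE 0.32, 3.80-fold; adjusted p = 0.00136), but at log2 -0.04 (adjusted p = 0.990) with curated transcripts alone.

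Zfp36, the gene of TTP itself, had 288, 425 and 282 CPM in RAB27aKO CpG libraries, against 202, 213 and 190 CPM in unstimulated RAB27aKO libraries. The groups stood apart, with library 2 again the highest of the CpG group. Its rise was log2 0.72 (SE 0.15, 1.64-fold; adjusted p = 0.00521). Zfp36l1 had 37.6, 80.0 and 42.9 CPM in RAB27aKO CpG libraries, against 15.2, 17.7 and 15.6 CPM in unstimulated RAB27aKO libraries. Library 2 stood well above its group mates, and all CpG libraries lay above all unstimulated ones. The rise was log2 1.73 (SE 0.26, 3.32-fold; adjusted p = 0.000568).

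Zfp36l2 went the other way from its relatives. It had 214, 163 and 161 CPM in RAB27aKO CpG libraries, against 302, 295 and 274 CPM in unstimulated RAB27aKO libraries, and the groups did not overlap. The log2 fold change was -0.69 (SE 0.12, 1.62-fold lower; adjusted p = 0.00136). Without RAB27aKO CpG library 2 all 5 calls held, at log2 1.35 for Zc3h12a, 2.01 for Zc3h12c, 0.49 for Zfp36, 1.31 for Zfp36l1 and -0.63 for Zfp36l2. The summed level of the 10 markers of monocytes and macrophages, all with counts in every library, was higher with CpG. The sums were 1315 to 1794 CPM in RAB27aKO CpG libraries and 682 to 724 CPM in unstimulated RAB27aKO libraries. In wild-type cells they were 1330 to 1396 CPM with CpG and 862 to 899 CPM without it. Of the 10 markers CpG raised 2 in each genotype and lowered 0, with list medians of log2 0.33 in RAB27aKO and 0.17 in wild-type cells. Of all genes 7.57% were called higher in RAB27aKO cells and 4.74% in wild-type cells. The part of monocytes and macrophages in the CpG results was not tested.

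**Figure D1:**
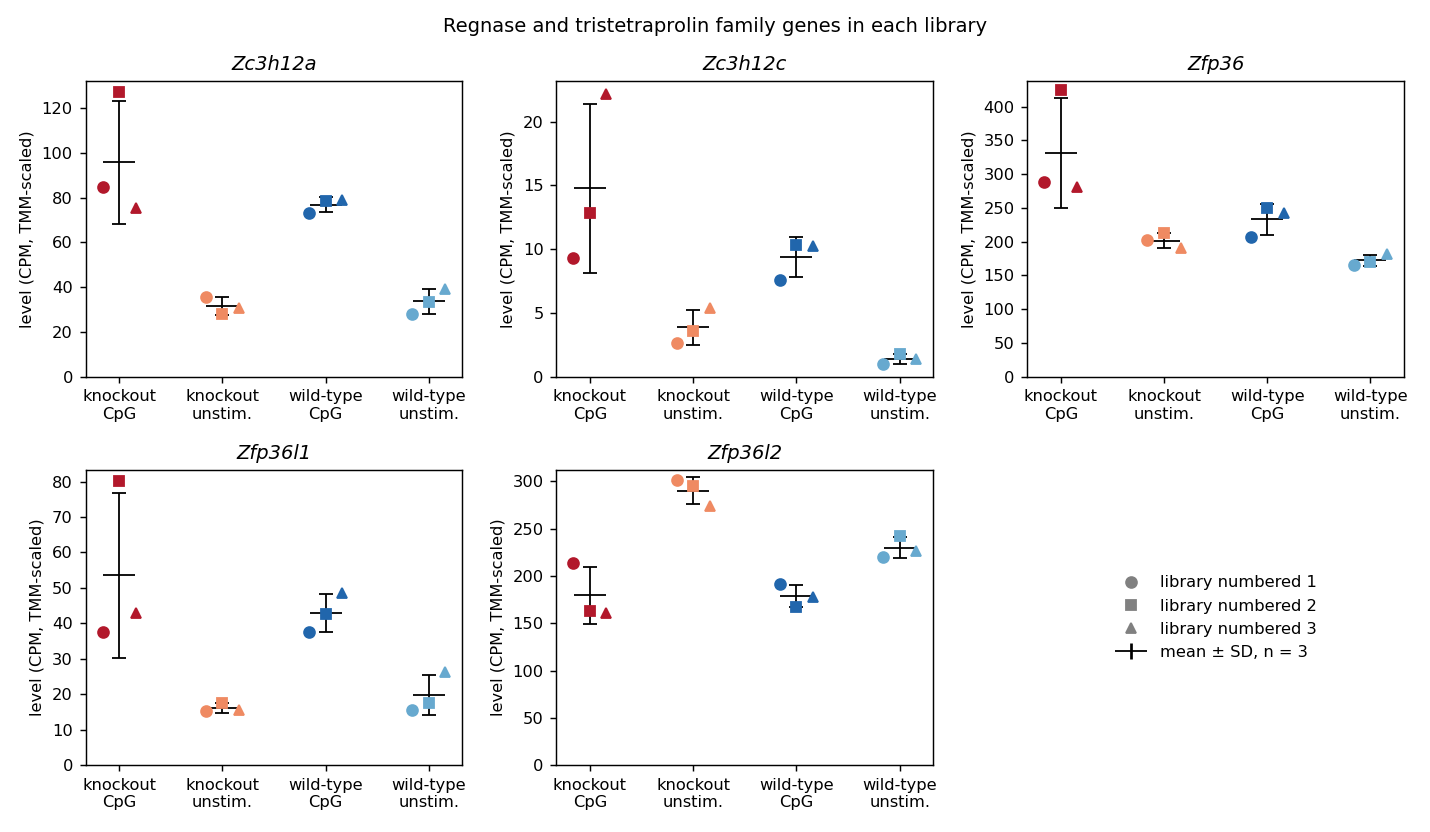
Level of each decay gene in every library, in CPM scaled by the trimmed mean of M-values, with 1 panel a gene and its own vertical axis from 0. Groups run from RAB27aKO CpG to unstimulated wild-type, symbols give the library number, and bars give mean ± SD of 3 libraries. Zfp36l2 is lower with CpG, at 161 to 214 CPM against 274 to 302 CPM in RAB27aKO cells, while the 4 other genes are higher.

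In wild-type cells CpG raised 3 of the 5 genes, Zc3h12a, Zc3h12c and Zfp36l1. Zfp36 and Zfp36l2 did not pass the test, with values in the directions seen in RAB27aKO cells. Of all genes tested here, 4.74% were called higher and 1.3% lower. That is 652 genes, against 1824 with animal as a block, a fit that pairs same-numbered libraries of each genotype. The name is an assumption, since the labels do not say that equal numbers mark the same animal.

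Zc3h12a had 73.0, 78.5 and 78.9 CPM in wild-type CpG libraries 1, 2 and 3, against 28.2, 33.5 and 39.4 CPM in unstimulated wild-type libraries 1, 2 and 3. The groups were well apart, and the CpG libraries lay close together. This was a rise of log2 1.19 (SE 0.18, 2.28-fold; adjusted p = 0.000994). Zc3h12c had 7.58, 10.3 and 10.3 CPM in wild-type CpG libraries, against 1.02, 1.76 and 1.36 CPM in unstimulated wild-type libraries. The unstimulated values rest on only 12, 24 and 17 counts, against 101, 135 and 119 counts with CpG. Zc3h12c rose at log2 2.74 (SE 0.37, 6.70-fold; adjusted p = 0.000303), and the groups did not overlap. The call was lost with curated transcripts alone (log2 2.73, adjusted p = 0.153), although these wild-type counts are the same in that fit. The spread is estimated over all 4 groups together, and the curated counts of RAB27aKO CpG libraries 1, 2 and 3 were 0, 61.82 and 91.19.

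Zfp36l1 had 37.6, 42.8 and 48.5 CPM in wild-type CpG libraries, against 15.6, 17.5 and 26.3 CPM in unstimulated wild-type libraries. The groups did not overlap, with unstimulated library 3 nearest to the CpG group. The log2 fold change was 1.12 (SE 0.26, 2.17-fold; adjusted p = 0.0188). This call was lost without unstimulated library 1 (log2 0.96, adjusted p = 0.0972), unstimulated library 2 (1.01, 0.0885), CpG library 2 (1.10, 0.0593) or CpG library 3 (1.01, 0.0684).

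Zfp36 had 207, 250 and 242 CPM in wild-type CpG libraries, against 166, 170 and 182 CPM in unstimulated wild-type libraries. The groups did not overlap, but the log2 value of 0.43 (SE 0.15, 95% interval 0.12 to 0.75) had an adjusted p of 0.123. Zfp36l2 had 191, 168 and 178 CPM in wild-type CpG libraries, against 221, 242 and 227 CPM in unstimulated wild-type libraries. These groups did not overlap either, at log2 -0.36 (SE 0.12, 95% interval -0.62 to -0.11; adjusted p = 0.102). Both passed with animal as a block: Zfp36 at log2 0.43 and adjusted p = 0.00887, and Zfp36l2 at log2 -0.36 and adjusted p = 0.0136. That fit pairs same-numbered libraries of both genotypes, although only the wild-type libraries were taken as paired from their residuals. Zfp36 also passed without RAB27aKO CpG library 2, at log2 0.42 and adjusted p = 0.0206, and Zfp36l2 without RAB27aKO CpG library 1, at log2 -0.36 and adjusted p = 0.0376. DESeq2 called Zfp36l2 as well (log2 -0.37, adjusted p = 0.0260), and a fit of only the libraries compared called both, Zfp36l2 at adjusted p = 0.0432.

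**Figure D2:**
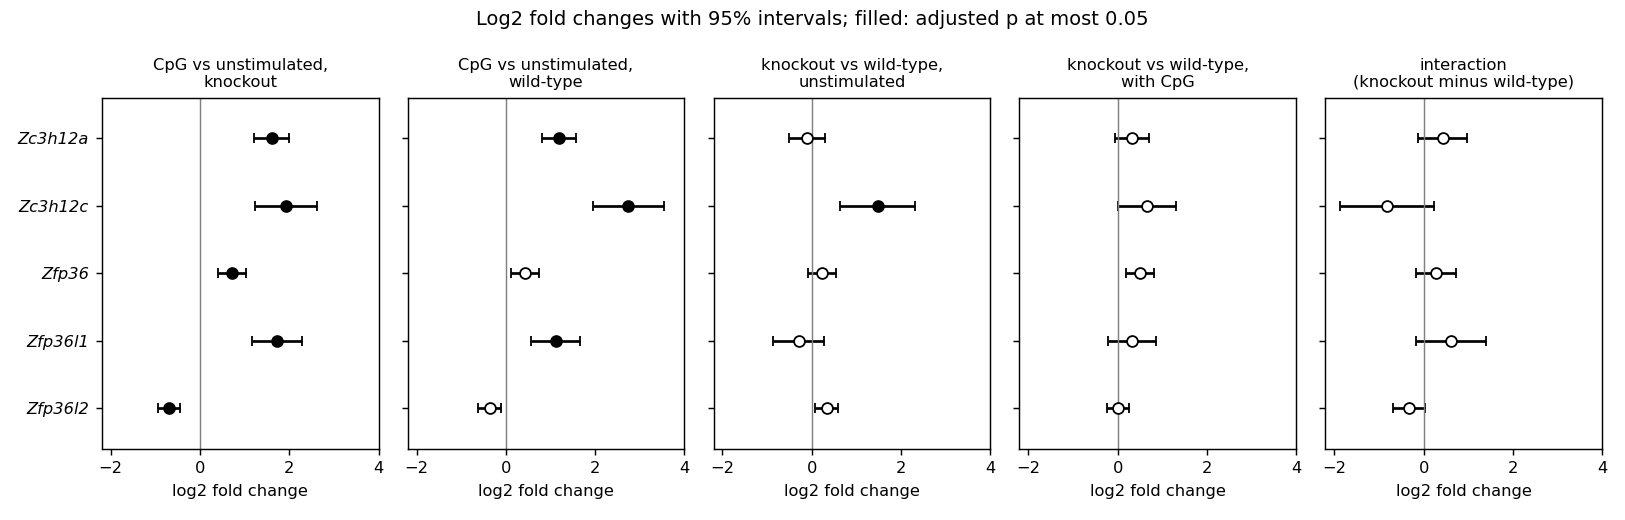
Log2 fold change of each decay gene in the 4 comparisons and their interaction, with 95% intervals from edgeR's quasi-likelihood fit. Filled points have an adjusted p of at most 0.05. All 5 points are filled for CpG in RAB27aKO cells, 3 for CpG in wild-type cells, 1 for genotype without CpG and 0 in the last 2 panels.

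Without CpG, 1 of the 5 genes differed between genotypes: Zc3h12c, at 3.87 ± 1.38 CPM in RAB27aKO cells and 1.38 ± 0.370 CPM in wild-type cells (SD, n = 3 each). Of all genes tested here, 2.11% were called higher and 2.64% lower. The log2 fold change was 1.47 (SE 0.39, 2.78-fold; adjusted p = 0.0420), and the lowest RAB27aKO library, at 2.64 CPM, lay above the highest wild-type library, at 1.76 CPM.

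The Zc3h12c call rests on 28, 41 and 64 counts in RAB27aKO cells against 12, 24 and 17 in wild-type cells, and it was lost in 8 of the 12 fits that left out a library. The adjusted p was 0.123 (log2 1.19) without unstimulated RAB27aKO library 3, 0.0990 (1.52) without unstimulated RAB27aKO library 2, 0.163 (1.33) without unstimulated wild-type library 1, 0.0612 (1.73) without unstimulated wild-type library 2 and 0.132 (1.48) without unstimulated wild-type library 3. It lay between 0.0520 and 0.0542 (log2 1.49 in each) without wild-type CpG library 2, wild-type CpG library 3 or RAB27aKO CpG library 2. Scaling by library size alone gave log2 1.48 and an adjusted p of 0.0739. Zc3h12c lies on chromosome 9, as does Rab27a, with starts 20.9 Mb apart on GRCm38.p6.

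Markers of several other cell types ran in the same order as Zc3h12c over the RAB27aKO libraries. Zc3h12c was lowest in library 1 and highest in library 3 in both conditions, and so were the sums of 5 marker lists. The monocyte and macrophage sums did not follow it, at 1794, 1571 and 1315 CPM in RAB27aKO CpG libraries 1, 2 and 3 and 724, 682 and 693 CPM in unstimulated RAB27aKO libraries 1, 2 and 3. The 8 B-lineage markers, all with counts in every RAB27aKO library, summed to 7.59, 35.3 and 104 CPM with CpG and 6.80, 30.1 and 93.2 CPM without it, against 27.1 to 43.3 CPM in wild-type libraries. The 6 dendritic cell markers summed to 8.64, 17.0 and 31.5 CPM with CpG and 4.16, 5.36 and 14.4 CPM without it, against 7.42 to 18.4 CPM in wild-type libraries, with Xcr1 at 0 in all but RAB27aKO CpG library 3. The 7 measured T and NK cell markers summed to 2.97, 4.31 and 9.15 CPM with CpG and 2.74, 3.34 and 5.03 CPM without it, against 2.47 to 5.62 CPM in wild-type libraries, with Klrb1c at 0 in all unstimulated RAB27aKO libraries. The 7 markers of eosinophils, basophils and mast cells summed to 11.5, 18.8 and 47.5 CPM with CpG and 13.8, 15.2 and 38.1 CPM without it, against 22.8 to 43.9 CPM in wild-type libraries. The erythroid sums given above follow the same order, with all 8 markers counted in every library. The part of these cells in the Zc3h12c levels was not tested.

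The other decay genes did not pass between unstimulated genotypes. Zfp36l2 averaged 290.1 ± 14.5 CPM in RAB27aKO cells and 229.9 ± 11.1 CPM in wild-type cells, with no overlap (log2 0.34, SE 0.12; adjusted p = 0.142). It was called by DESeq2 (log2 0.35, adjusted p = 0.0434) and in a fit of only the libraries compared (log2 0.35, adjusted p = 0.0480). Zfp36 averaged 202 ± 11.2 CPM in RAB27aKO cells and 173 ± 8.21 CPM in wild-type cells, also with no overlap (log2 0.22, SE 0.15; adjusted p = 0.482). Zc3h12a overlapped at 31.4 ± 4.01 CPM in RAB27aKO cells and 33.7 ± 5.56 CPM in wild-type cells (log2 -0.10, 95% interval -0.50 to 0.29; adjusted p = 0.844). Zfp36l1 overlapped at 16.1 ± 1.32 CPM in RAB27aKO cells and 19.8 ± 5.70 CPM in wild-type cells (log2 -0.29, 95% interval -0.87 to 0.28; adjusted p = 0.645).

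With CpG, 0 of the 5 genes were called between genotypes by edgeR's quasi-likelihood test, where 1.7% of all genes were called higher and 2.21% lower. At an unadjusted p under 0.05 there was 1, Zfp36, among 1957 genes of all tested. Zfp36 averaged 331 ± 81.0 CPM in RAB27aKO cells and 233 ± 23.3 CPM in wild-type cells (SD, n = 3 each). The groups did not overlap, and the log2 value was 0.51 (SE 0.15, 95% interval 0.19 to 0.82; adjusted p = 0.0780). DESeq2 called it (log2 0.53, adjusted p = 0.0154), as did edgeR without RAB27aKO CpG library 3 (log2 0.63, adjusted p = 0.0245), while without RAB27aKO CpG library 2 it stood at log2 0.32 and adjusted p = 0.176.

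Zc3h12a averaged 95.8 ± 27.6 CPM in RAB27aKO cells and 76.8 ± 3.32 CPM in wild-type cells with CpG, with overlap (log2 0.32, 95% interval -0.06 to 0.70; adjusted p = 0.371). Zc3h12c averaged 14.8 ± 6.61 CPM in RAB27aKO cells and 9.40 ± 1.57 CPM in wild-type cells, with overlap (log2 0.65, 95% interval -0.004 to 1.31; adjusted p = 0.279). Zfp36l1 averaged 53.5 ± 23.1 CPM in RAB27aKO cells and 43.0 ± 5.47 CPM in wild-type cells (log2 0.32, 95% interval -0.22 to 0.86; adjusted p = 0.542), and its sign turned without RAB27aKO CpG library 2 (log2 -0.07). Zfp36l2 averaged 179 ± 29.99 CPM in RAB27aKO cells and 179 ± 11.9 CPM in wild-type cells, with overlap (log2 0.01, 95% interval -0.25 to 0.26; adjusted p = 0.991). The wide SDs of Zc3h12a, Zfp36 and Zfp36l1 in RAB27aKO CpG cells came with library 2 as the highest value of each.

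Whether CpG acted differently in the genotypes was tested as an interaction, RAB27aKO response minus wild-type response. The estimates were 0.42 for Zc3h12a (SE 0.26, 95% interval -0.13 to 0.97), -0.82 for Zc3h12c (SE 0.49, -1.88 to 0.24), 0.28 for Zfp36 (SE 0.21, -0.16 to 0.73), 0.61 for Zfp36l1 (SE 0.36, -0.17 to 1.40) and -0.33 for Zfp36l2 (SE 0.17, -0.69 to 0.03), all on the log2 scale. None passed in edgeR, with an adjusted p of 0.9999 for each and the lowest unadjusted p at 0.0678. In this test 0% of all 10802 genes were called and 365 had an unadjusted p under 0.05, while DESeq2 called 3 genes. So a pass in RAB27aKO cells and a miss in wild-type cells, as for Zfp36 and Zfp36l2, does not show a difference between genotypes.

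Zc3h12c was the 1 decay gene with 2 transcripts in the tables, a curated RefSeq transcript and a predicted one, and the estimated counts moved between them. In wild-type CpG cells all 101, 135 and 119 counts were given to the curated transcript, as were all counts of both unstimulated groups. In RAB27aKO CpG libraries 1, 2 and 3 the predicted transcript took 107, 126.18 and 191.81 counts and the curated transcript 0, 61.82 and 91.19 counts. The predicted transcript was at 0 in the 9 other libraries. Requiring at least 50 counts in each library of 1 group and 0 in the other 9, a threshold chosen after seeing these values, 1 of 54716 transcripts met it for RAB27aKO CpG cells, this one, against 2 for wild-type CpG cells and 0 for each unstimulated group.

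Because of this split the gene's total and its curated transcript gave different answers. With curated transcripts alone, the CpG effect on Zc3h12c in RAB27aKO cells was log2 -0.04 (adjusted p = 0.990), against 1.92 for the gene. With CpG, RAB27aKO cells stood below wild-type cells at log2 -1.27 (adjusted p = 0.526), against 0.65 for the gene. The genotype value without CpG kept its size at log2 1.5 but had an edgeR adjusted p of 0.500. The CpG effect in wild-type cells was log2 2.73 with an adjusted p of 0.153. Zc3h12c counts in these 2 comparisons are the same in both fits, but each fit estimates the spread over all 4 groups together. How the estimation program divided reads between the transcripts cannot be checked from these tables.

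**Figure D3:**
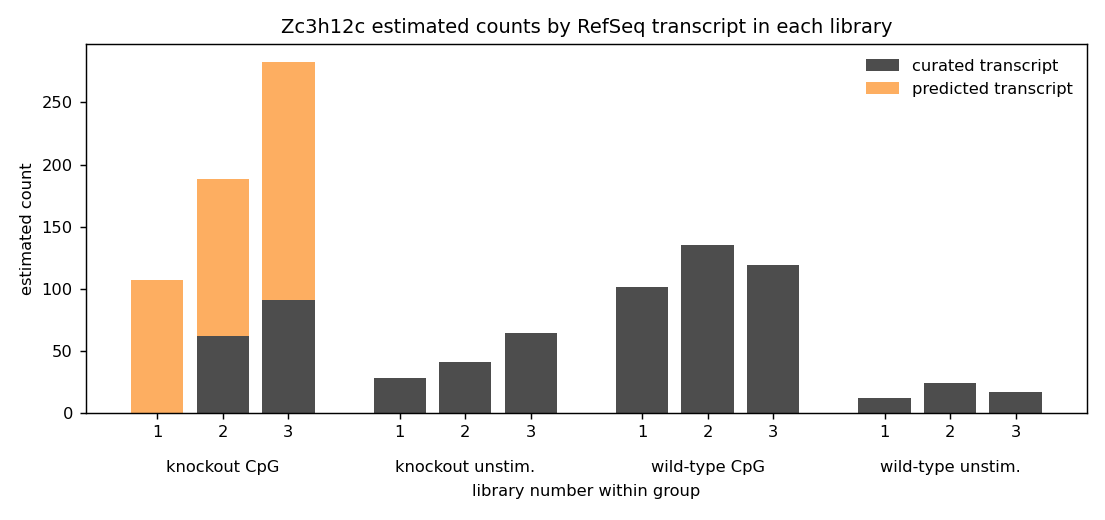
Estimated counts of Zc3h12c in each library, stacked by the curated and the predicted RefSeq transcript. The predicted transcript takes 107 to 191.81 counts in the RAB27aKO CpG libraries and 0 in all others, and RAB27aKO CpG library 1 has 0 on the curated transcript.

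Levels of different genes were compared in the deposited TPM, which allow for transcript length. The order was the same in all 4 groups: Zfp36, Zfp36l2, Zc3h12a, Zfp36l1 and Zc3h12c. Zfp36 averaged 286 ± 79.6 TPM in RAB27aKO CpG cells, 186 ± 2.73 in unstimulated RAB27aKO cells, 199 ± 21.4 in wild-type CpG cells and 148 ± 4.13 in unstimulated wild-type cells (SD, n = 3 each). Zc3h12c, at the other end, averaged 2.29 ± 1.203 TPM in RAB27aKO CpG cells, 0.660 ± 0.269 in unstimulated RAB27aKO cells, 1.46 ± 0.232 in wild-type CpG cells and 0.213 ± 0.0611 in unstimulated wild-type cells. Neighbours in the order did not overlap in any group except Zfp36l2 and Zc3h12a in RAB27aKO CpG cells, at 63.76 to 77.44 TPM for Zfp36l2 and 39.46 to 64.52 TPM for Zc3h12a.

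Zfp36l2 was the second most abundant and changed its distance to Zfp36 with CpG. It averaged 69.6 ± 7.07 TPM in RAB27aKO CpG cells, 123 ± 2.97 in unstimulated RAB27aKO cells, 70.4 ± 6.19 in wild-type CpG cells and 90.3 ± 7.03 in unstimulated wild-type cells. The ratio of Zfp36 to Zfp36l2 was 4.21 ± 1.53 in RAB27aKO CpG cells and 1.51 ± 0.0581 in unstimulated RAB27aKO cells, and 2.85 ± 0.461 in wild-type CpG cells and 1.64 ± 0.122 in unstimulated wild-type cells. The CpG libraries did not overlap the unstimulated ones in either genotype, at 2.92 to 5.90 against 1.45 to 1.57 in RAB27aKO cells and 2.34 to 3.24 against 1.53 to 1.77 in wild-type cells. These ratios were not tested. S100a8 and S100a9 took 27.3 to 34.5% of all TPM, a share that bears on each TPM value but cancels in a ratio.

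Zc3h12a averaged 48.2 ± 14.1 TPM in RAB27aKO CpG cells, 17.2 ± 2.35 in unstimulated RAB27aKO cells, 38.9 ± 2.22 in wild-type CpG cells and 17.0 ± 2.35 in unstimulated wild-type cells. Zfp36l1 averaged 25.3 ± 11.2 TPM in RAB27aKO CpG cells, 8.26 ± 0.535 in unstimulated RAB27aKO cells, 20.3 ± 1.74 in wild-type CpG cells and 9.29 ± 2.31 in unstimulated wild-type cells. The TPM of the 5 genes summed to 431.5 ± 98.8 in RAB27aKO CpG cells, 336 ± 2.62 in unstimulated RAB27aKO cells, 330.2 ± 22.1 in wild-type CpG cells and 265 ± 11.1 in unstimulated wild-type cells. The sum was highest with CpG in both genotypes although 1 member, Zfp36l2, was lower.

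**Figure D4:**
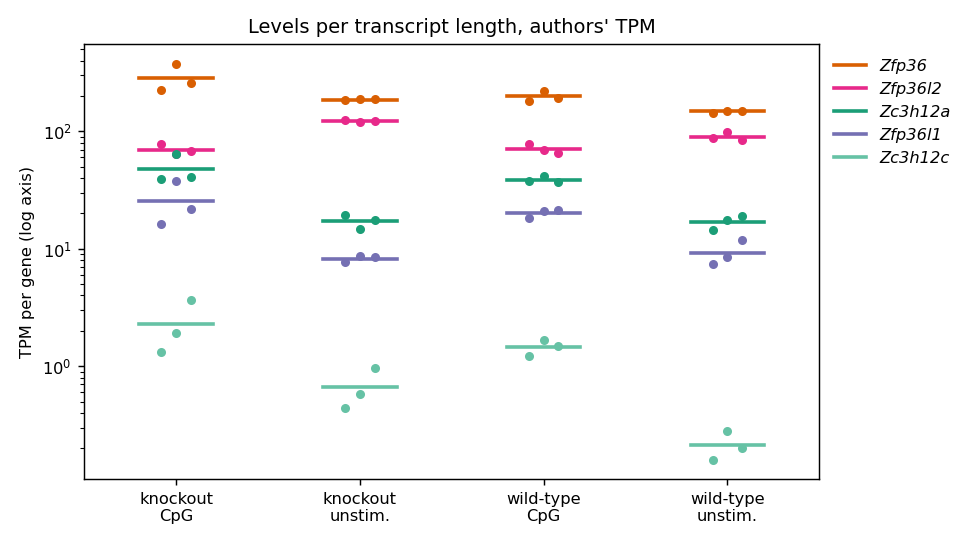
TPM of each decay gene in every library on a log axis, with a line at each group's mean. The genes keep the same order in the 4 groups, with Zfp36 at the top and Zc3h12c at 0.16 to 3.63 TPM at the bottom.

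The decay genes act with partners, and these were followed as lists. A list of 13 genes held Regnase-related nucleases, stem-loop decay factors and enzymes that act on Regnase-1, with Arid5a, which is none of these. Of the 13, 11 passed the filter. CpG raised 4 of the 11 in RAB27aKO cells and lowered 0, with a list median of log2 0.32 against -0.01 over all genes tested. In wild-type cells CpG raised 3 of the 11 and lowered 0, with a list median of 0.33 against -0.01. Of all genes 7.57% were called higher in RAB27aKO cells and 4.74% in wild-type cells. With animal as a block 5 of the 11 were called in wild-type cells, where 1824 of all 10802 genes were called.

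Ikbke, which encodes an IκB kinase-related enzyme, had the largest change on that list. It averaged 221 ± 50.9 CPM in RAB27aKO CpG cells and 4.73 ± 1.16 CPM in unstimulated RAB27aKO cells (log2 5.54, SE 0.22; edgeR quasi-likelihood adjusted p = 3.71e-09), and 149 ± 6.26 CPM in wild-type CpG cells and 6.95 ± 1.72 CPM in unstimulated wild-type cells (log2 4.42, SE 0.21; adjusted p = 3.02e-08). N4bp1, which encodes a nuclease related to Regnase-1, averaged 938 ± 117 CPM in RAB27aKO CpG cells and 227 ± 24.6 CPM in unstimulated RAB27aKO cells (log2 2.04, SE 0.12; adjusted p = 1.44e-07), and 645.5 ± 52.6 CPM in wild-type CpG cells and 205 ± 7.02 CPM in unstimulated wild-type cells (log2 1.66, SE 0.12; adjusted p = 1.83e-06). Malt1, the protease that cleaves Regnase-1, rose in both genotypes at log2 0.92 (SE 0.13) in RAB27aKO cells and 0.94 (SE 0.13) in wild-type cells, and Tbk1, another IκB kinase-related gene, rose in RAB27aKO cells at log2 0.36 (SE 0.10). Rc3h1 and Rc3h2, the genes of the Roquin stem-loop binders, did not pass, at log2 -0.03 and -0.04 in RAB27aKO cells and 0.10 and 0.17 in wild-type cells.

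A list of 10 genes held kinases and phosphatases of the p38 and MK2 axis that acts on TTP, with Ywhab and Ywhaz, which are neither. Of the 10, 9 passed the filter. CpG raised 3 in RAB27aKO cells and 2 in wild-type cells, and lowered 0 in both, with list medians of log2 0.01 and 0.04 against -0.01 over all genes in each genotype. Of all genes 7.57% were called higher in RAB27aKO cells and 4.74% in wild-type cells. Mapkapk2, the MK2 gene, averaged 822 ± 58.8 CPM in RAB27aKO CpG cells and 293 ± 26.3 CPM in unstimulated RAB27aKO cells (log2 1.49, SE 0.11), and 633 ± 48.4 CPM in wild-type CpG cells and 259 ± 8.44 CPM in unstimulated wild-type cells (log2 1.29, SE 0.11; edgeR quasi-likelihood adjusted p = 8.25e-07 in RAB27aKO and 5.95e-06 in wild-type cells). Mapk14, a p38 gene, rose at log2 1.03 (SE 0.17) in RAB27aKO cells and 0.73 (SE 0.17) in wild-type cells, and Mapkapk3, a relative of Mapkapk2, rose at log2 0.41 (SE 0.11) in RAB27aKO cells. The RAB27aKO count was 2 without RAB27aKO CpG library 2, and the wild-type count was 1 without unstimulated wild-type library 1 or 2 or wild-type CpG library 1 or 3.

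The general decay machinery was followed in the same way. Of 18 CCR4-NOT, PAN2-PAN3 and adaptor genes, CpG raised 1 in each genotype, the deadenylase gene Pan2, at log2 0.62 (SE 0.10) in RAB27aKO cells and 0.39 (SE 0.10) in wild-type cells (edgeR quasi-likelihood adjusted p = 0.000945 and 0.0341). The list medians were log2 0.00 and -0.02, and 1 of 18 is near the share of all genes called higher, 7.57% in RAB27aKO and 4.74% in wild-type cells. In wild-type cells no gene of that list was called when any of the 6 wild-type libraries or unstimulated RAB27aKO library 1 or 2 was left out. None of 12 decapping and 5′-to-3′ decay genes passed with CpG in either genotype. Their medians were log2 0.05 in RAB27aKO and 0.10 in wild-type cells. The same was true of 12 genes listed as other AU-rich element binders, with medians of 0.01 and -0.02. That list also holds Pabpc1, Pcbp1, Ptbp1 and Ybx1, whose proteins are not specific to these elements. Over the 62 tested genes of these 5 lists, 8 were called with CpG in RAB27aKO cells and 6 in wild-type cells, all higher, where 7.57% of all genes were called higher in RAB27aKO cells and 4.74% in wild-type cells.

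Between genotypes 1 of the 62 partners was called higher and 1 lower in each condition, where 1.7% of all genes were called higher and 2.21% lower with CpG, and 2.11% higher and 2.64% lower without it. Mapkapk3 was lower in RAB27aKO cells, at 60.3 ± 5.81 CPM with CpG against 109 ± 8.47 CPM in wild-type cells with CpG (log2 -0.85, SE 0.11; edgeR quasi-likelihood adjusted p = 0.000261). Without CpG it stood at 45.5 ± 3.27 CPM in RAB27aKO cells against 93.3 ± 5.66 CPM in wild-type cells (log2 -1.04, SE 0.11; adjusted p = 4.01e-05). Mapkapk3 lies on chromosome 9, as does Rab27a, with starts at bases 107254927 and 73044810 on GRCm38.p6. With curated transcripts alone 0 genes of its list were called with CpG and 1 without it. Dusp1, the gene of a phosphatase that turns p38 off, averaged 120 ± 6.21 CPM in unstimulated RAB27aKO cells and 63.9 ± 14.7 CPM in unstimulated wild-type cells (log2 0.91, SE 0.16; adjusted p = 0.00350). N4bp1 was higher in RAB27aKO cells with CpG (log2 0.54, SE 0.12; adjusted p = 0.0214), and 0 genes of its list were called there without RAB27aKO CpG library 2, wild-type CpG library 1 or wild-type CpG library 3.

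The mRNAs that the decay proteins are known to act on were mostly higher with CpG too. Of 19 textbook target genes other than Zfp36 and Zc3h12a, 18 passed the filter. CpG raised 12 of the 18 in RAB27aKO cells (list median log2 1.38) and 14 of the 18 in wild-type cells (1.83), and lowered 0 in both, where 7.57% of all genes were called higher in RAB27aKO and 4.74% in wild-type cells. Tnf, whose AU-rich stretch is shown above, averaged 167 ± 7.06 CPM in RAB27aKO CpG cells and 16.2 ± 1.19 CPM in unstimulated RAB27aKO cells (log2 3.36, SE 0.11; edgeR quasi-likelihood adjusted p = 2.17e-09), and 134 ± 14.5 CPM in wild-type CpG cells and 19.8 ± 2.02 CPM in unstimulated wild-type cells (log2 2.76, SE 0.11; adjusted p = 1.29e-08). Nfkbiz, an atypical IκB gene and a Regnase-1 target, rose at log2 1.41 (SE 0.11) in RAB27aKO cells and 1.34 (SE 0.11) in wild-type cells.

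The largest fitted changes on the target list came from genes with almost no counts without CpG, so levels are given in place of folds. Il12b, a subunit gene of IL-12 and IL-23, averaged 34.6 ± 5.30 CPM in RAB27aKO CpG cells and 0.0851 ± 0.0838 CPM in unstimulated RAB27aKO cells, and 8.63 ± 4.95 CPM in wild-type CpG cells and 0.0757 ± 0.0735 CPM in unstimulated wild-type cells. Il10, an anti-inflammatory cytokine gene, averaged 2.34 ± 0.778 CPM in RAB27aKO CpG cells and 0.0887 ± 0.00539 CPM in unstimulated RAB27aKO cells, and 2.71 ± 0.646 CPM in wild-type CpG cells and 0.0529 ± 0.0462 CPM in unstimulated wild-type cells. Il6, also shown above, did not pass in RAB27aKO cells, at 2.35 ± 0.893 CPM with CpG and 0.705 ± 0.159 CPM without it (log2 1.72, SE 0.55; adjusted p = 0.0564). Between unstimulated genotypes, 4 of the 18 targets were called higher in RAB27aKO cells and 0 lower: Dusp1, Ccl3, Ptgs2 and Il1b (log2 0.91, 0.88, 0.86 and 0.85). Of all genes 2.11% were called higher there. That count of 4 was 1 without unstimulated RAB27aKO library 2 or unstimulated wild-type library 3, and 2 without unstimulated RAB27aKO library 1. With CpG 1 of the 18 was called higher in RAB27aKO cells and 0 lower, where 1.7% of all genes were called higher.

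The genes most like each decay gene were sought among the 7913 tested genes averaging 5 CPM or more, by the root mean square difference of centred log2 CPM over the 12 libraries. These are descriptions over libraries that share their groups. Zc3h12a ran closest to Traf3, the gene of a signalling adaptor, at a difference of 0.11, where its own spread was 0.73, followed by Tjap1 at 0.14. Zfp36l1 ran closest to Zc3h12a itself, at 0.19 with an own spread of 0.77, then to Tjap1 at 0.21 and Traf3 at 0.22. Zfp36 ran closest to Crtc2 at 0.05, Rela at 0.09 and Nfkbid at 0.11, with an own spread of 0.37. Zfp36l2 ran closest to Nudt4 and Cnr2 at 0.09 and Ss18 at 0.10, with an own spread of 0.31. Zc3h12c had no close match, with Cd14 at 0.47 and Olr1 and Ccrl2 at 0.48 against an own spread of 1.32.

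Promoters of 300 bases, from 250 before to 50 after the start, were read from RefSeq on GRCm38.p6 for the members that rose with CpG. Zc3h12a, Zfp36 and Zfp36l1 had 1 each and Zc3h12c had 2. The NF-kB consensus was found in 1 of these 5 and in 8.46% of all 32851 promoters of that length, and the AP-1 letters TGANTCA in 1 of the 5 and in 7.81% of all, on either strand. The 2 promoters with a match are shown because these members rose with CpG, with the match in capitals, on the minus strand of each chromosome.
Zc3h12c, first start, chr9:52168357-52168656: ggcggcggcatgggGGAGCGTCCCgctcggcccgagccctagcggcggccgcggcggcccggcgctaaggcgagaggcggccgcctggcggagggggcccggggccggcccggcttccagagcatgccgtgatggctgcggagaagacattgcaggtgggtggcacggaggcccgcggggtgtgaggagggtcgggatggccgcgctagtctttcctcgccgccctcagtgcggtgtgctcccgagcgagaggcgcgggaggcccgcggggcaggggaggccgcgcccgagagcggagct
Zfp36l1, chr12:80112964-80113263: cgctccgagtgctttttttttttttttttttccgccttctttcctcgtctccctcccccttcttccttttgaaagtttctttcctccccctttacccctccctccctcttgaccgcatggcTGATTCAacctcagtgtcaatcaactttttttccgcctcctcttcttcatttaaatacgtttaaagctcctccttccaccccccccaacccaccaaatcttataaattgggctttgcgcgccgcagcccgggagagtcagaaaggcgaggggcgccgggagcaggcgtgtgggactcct
The NF-kB match of Zc3h12c begins 236 bases before the first listed start, read on the strand opposite to the gene. This window lies within the annotated gene, chr9:52109569-52168730, so the match is not upstream of the whole gene. The AP-1 match of Zfp36l1 begins 129 bases before the start. Which start serves which Zc3h12c transcript was not matched. The other 3 promoters do not hold these letters in this window, which says nothing of the factors.

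On the opposite strand Zfp36 overlaps Gm44710 over 1274 bases, Zfp36l1 overlaps Gm26669 over 4967 bases, Zfp36l2 overlaps AC132455.1 over 2192 bases and Zc3h12c overlaps Mir6244 over 117 bases, in GENCODE vM21. The sources used here do not say whether the libraries kept the strand, so reads from these partners cannot be told apart from those of the decay genes.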

How the data were processed

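Per the labels, BGI Genomics made and sequenced 12 polyA RNA libraries (Illumina HiSeq). The authors deposited, for each library, estimated counts, TPM and FPKM of 54716 RefSeq transcripts (24908 curated, 29808 predicted). The submitters' processing notes name Bowtie2, RSEM 1.2.28 and GRCm39, and 80.4% of the deposited estimated counts above 0 were not whole. Counts were summed per gene, rounded and tested with edgeR 4.0.16 in R 4.3.3: trimmed mean of M-values scaling (0.900 to 1.093), filterByExpr (minimum count 10, total 15), 1 mean per group and 8 residual degrees of freedom. The deposited TPM were summed per gene to compare genes, and the deposited FPKM served as an alternative. DESeq2 1.42.0 was an alternative test. The fit was tested on simulated data.

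Symbols came from the RefSeq annotation of GRCm38.p6 (15883 of 15986 genes matched). Sequences came from that assembly, an earlier build than GRCm39, and no coordinates were converted. The 5 members and all lists were chosen with earlier results of these data known. Of each list the 2 called genes with the largest change were named, and for each member the 3 genes most like it, of which 1 is not reported here. Tnf, Il6, Nfkbiz, Rc3h1 and Rc3h2, and called genes named beyond the first 2 of a list, were chosen after their values were seen. Trac, a T cell marker, was not matched.

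Whether equal numbers pair the libraries was checked from residual correlations. Wild-type pairs gave 0.28, 0.41 and 0.44, above the threshold of 0.1, so wild-type CpG results are also given with animal as a block where that changes a call. That fit covers all 12 libraries and has a term for each same-numbered pair of both genotypes. RAB27aKO pairs gave 0.62, 0.09 and 0.68 and were not taken as paired, because pair 2 fell under the threshold. Same-numbered RAB27aKO libraries did lie close in their erythroid and B-lineage marker sums. With the block all 5 members were still called with CpG in RAB27aKO cells, and 2591 genes were called against 1257.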

Additional observations from a re-analysis of the deposited data

How the results depend on the processing

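Of 535 refits of the members' log2 fold changes, 498 kept direction and side of the threshold, 15 lost the call, 12 gained it and 10 turned sign. All 5 members were called with CpG in RAB27aKO cells whichever library was left out. In wild-type cells 3 members were called with CpG, against 5 in a fit of only the libraries compared, 5 with animal as a replicate block and 2 to 4 leaving out each library. Between unstimulated genotypes 1 was called, against 0 with library size alone or curated transcripts, 2 with DESeq2 or only the libraries compared, and 0 to 1 leaving out each library. With CpG 0 were called between genotypes, against 1 with DESeq2 and 0 to 1 leaving out each library. Signs turned for Zc3h12c with curated transcripts, at -0.0437 for CpG in RAB27aKO cells and -1.27 for genotype with CpG. For genotype with CpG they turned for Zfp36l2 with library size alone (-0.0712), only the libraries compared (-0.0021), a replicate block (-0.00065) and leaving out a library (-0.14 to 0.10), and for Zfp36l1 leaving out a library (-0.0650 to 0.519). Zc3h12a between unstimulated genotypes ranged from -0.207 to 0.0361 leaving out a library. The cause was not tested.

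Over all genes, 1257 were called with CpG in RAB27aKO cells (818 higher, 439 lower), against 739 higher and 778 lower with library size alone, 2591 with animal as a replicate block (1380 higher, 1211 lower) and 818 to 1347 leaving out a library. In wild-type cells 652 were called with CpG, against 1824 with the animal block, 425 with curated transcripts and 425 to 758 leaving out a library. Between unstimulated genotypes 513 were called, against 782 with DESeq2, 283 with curated transcripts and 278 to 604 leaving out a library. With CpG 423 were called between genotypes (184 higher, 239 lower), against 734 with DESeq2 (419 higher, 315 lower), 155 higher and 314 lower with library size alone, 253 in only the libraries compared, 227 with curated transcripts and 234 to 699 leaving out a library. For the interaction 0 were called, against 3 with DESeq2 and 13 with the animal block. The block by replicate number over all groups changed no call of a member. Zc3h12c, with 12 to 24 counts in unstimulated wild-type libraries, is the member that depth limits most. The ratio of Zfp36 to Zfp36l2 ranged over 3.36 to 4.85 and 1.48 to 1.54 (RAB27aKO, with and without CpG) and 2.66 to 3.11 and 1.58 to 1.70 (wild-type, with and without CpG) leaving out a library.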
